A study of Mus musculus with 6 samples.

Results

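The genes described here encode the receptors, bridging ligands and adaptors through which macrophages recognise and take up dead cells, modified lipoproteins and microbes. They were chosen by symbol as a list of 40 genes, and all 40 were among the 23935 symbols of the count and TPM tables. By role they fall into 11 receptors for dead-cell uptake, 3 bridging ligands, 8 scavenger receptors, 8 C-type lectins, 7 engulfment adaptors or scramblases, and 3 genes of the CD47 axis and sialoadhesin. RNA-seq was performed on bone marrow-derived macrophages (BMDMs), the adherent cells that grow from bone marrow in M-CSF within 7 days, from 3 PKM2FL/FL and 3 PKM2ΔMAC mice, with 1 library per mouse. All 6 cultures were primed for 16 h with 10 ng/mL LPS, a component of the bacterial outer membrane, and 25 ng/mL IFN-γ, so that no unprimed culture was part of the comparison. Mice of both genotypes carried the floxed allele for PKM2, the splice form of pyruvate kinase M that predominates in activated macrophages. The PKM2ΔMAC mice also carried LysM-Cre, in which the Lyz2 locus drives Cre in macrophages and in other myeloid cells, neutrophils included, and the controls were littermates with no Cre. Cre expression was thus part of the genotype difference as well as the loss of PKM2. The fall of Lyz2 RNA, given below, was a part of it too.

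Efferocytosis is the removal of dying cells by phagocytes. A dying cell exposes phosphatidylserine on its outer membrane, which is read directly by receptors such as TIM-4 (Timd4) and the CD300 family, or through soluble bridges, with GAS6 and protein S (Pros1) binding the TAM receptor kinases and MFG-E8 binding integrins of the αv chain. Scavenger receptors bind oxidised lipoproteins, microbial surfaces and dead cells, and C-type lectins bind sugars and lipids of fungi and mycobacteria or products of dead cells, some of them carrying an inhibitory and others an activating signal. In the liver, the uptake of dead cells and neutrophils by macrophages is known for its part in the resolution of injury.

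The libraries held between 49957449 and 54524651 counts, and 3 counts, the limit that a count of 0 still allows, corresponded to between 0.0546 and 0.0604 CPM (counts scaled to a common library total), for counting error only. Pkm, the gene that encodes both PKM1 and PKM2 and was targeted in 1 of its splice forms, had 1706 ± 8.08 CPM in controls and 1068 ± 125 CPM in PKM2ΔMAC macrophages (mean ± SD, n = 3; adjusted p = 0.00913, edgeR), while a count per gene cannot tell the splice forms apart. Lyz2, whose locus holds the Cre, fell from 17825 ± 860.1 to 28.4 ± 3.80 CPM. Macrophage markers other than Lyz2 summed to between 7846 and 8157 CPM in PKM2FL/FL and between 7970 and 8654 CPM in PKM2ΔMAC libraries. Other cell types left a signal as well. Stromal markers, mostly collagen genes, summed to between 5819 and 6391 against between 5563 and 7063 CPM. Neutrophil markers stood apart by genotype, with sums between 20.3 and 49.5 CPM in PKM2FL/FL and between 90.2 and 170.2 CPM in PKM2ΔMAC libraries, and 8 of 8 tested markers higher in PKM2ΔMAC, although 0 passed the test over all genes. Cell cycle genes did the same, with sums between 622.6 and 627.7 against between 745.7 and 1054 CPM and 18 of 18 genes higher, 0 of them called. Markers of dendritic cells summed to at most 5.65 CPM in every library, and 0 of the markers that are in the table were at 0 in all 6 libraries. The neutrophil and cell cycle sums thus moved with genotype beside the results below, whereas the macrophage, stromal and dendritic cell sums overlapped. Within the macrophage list, Itgam (CD11b) was called, with between 192.8 and 197.5 CPM in PKM2FL/FL and between 253.5 and 271.5 CPM in PKM2ΔMAC libraries (adjusted p = 0.00272, edgeR), and Adgre1 (F4/80) did not overlap, with between 1666 and 1726 against between 1884 and 2236 CPM (adjusted p = 0.236). The part of these markers in the results was not tested. Since each library is bulk RNA, fewer cells of a type and less RNA per cell cannot be told apart. The library of PKM2ΔMAC mouse 2 stood apart from the other two of its genotype, and 299 genes instead of 68 were called without it.

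Most of these genes had a substantial level in the primed cultures. On the TPM scale, which divides by transcript length and so allows genes to be compared, Sirpa was the highest of the 40 with a mean over the 6 libraries of 1973 TPM, followed by Gas6 with 966.7, Mfge8 with 790.8, Lrp1 with 748.5 and Itgb5 with 601.4 TPM. The place of Mfge8 in this order is not settled, because it ranged from 427.6 to 1080 TPM between libraries, across the levels of Gas6, Lrp1 and Itgb5. Lrp1 was above Itgb5 in every library. Clec4d (571.6 TPM) and Clec4a1 (527.9 TPM) led the C-type lectins, and their ranges over libraries overlapped. At the other end stood Olr1, the oxidised LDL receptor LOX-1, with 0.211 TPM, Timd4 with 0.974 TPM, Marco with 1.20 TPM and Tyro3 with 2.99 TPM. Marco and Clec4e, which encodes Mincle, are known as genes that LPS induces in macrophages, and Clec4e was also low here with 7.40 TPM.

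**Figure D1:**
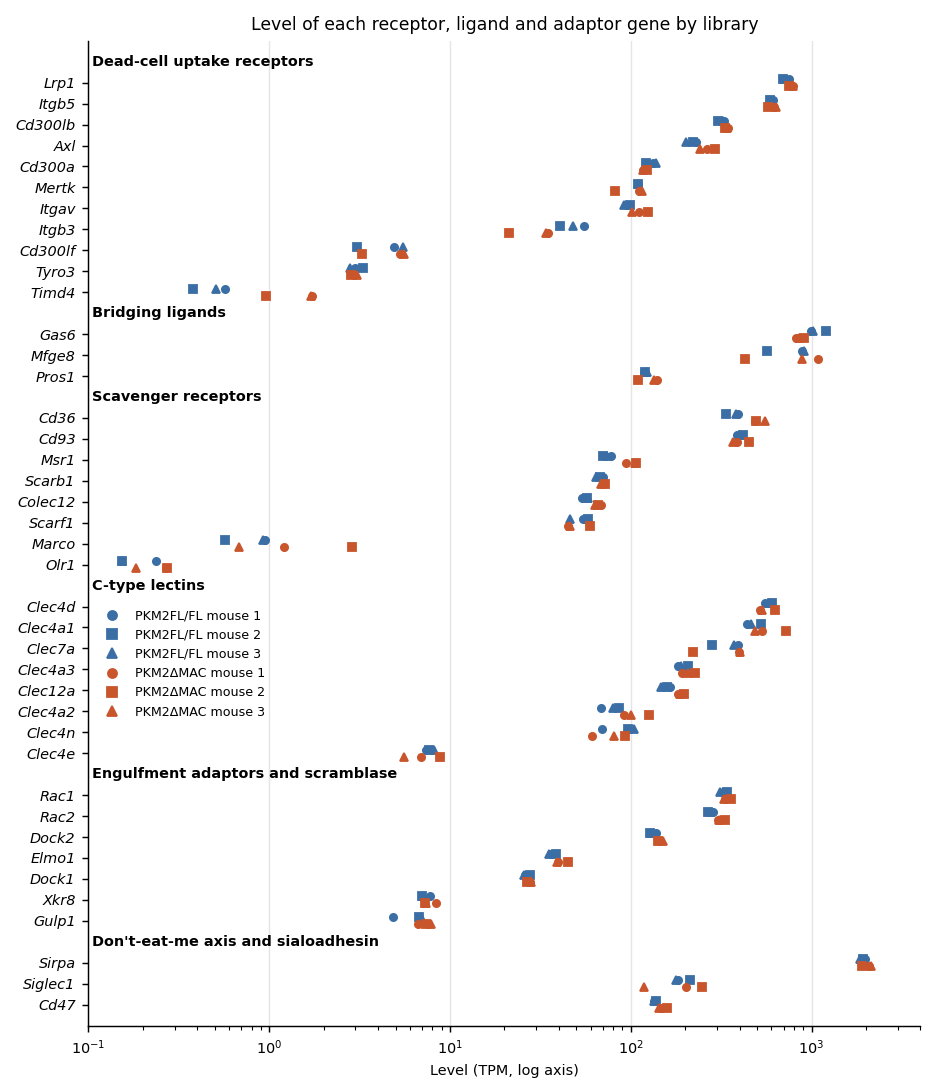
Level in TPM (log axis) of each of the 40 genes in each of the 6 libraries, grouped by role and ordered by mean level, with blue for PKM2FL/FL, red for PKM2ΔMAC and the marker shape for the mouse. Levels between genes spanned from 0.211 TPM for Olr1 to 1973 TPM for Sirpa, far more than the distance between the genotypes for any gene.

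To compare the genotypes, edgeR's quasi-likelihood test was run on the counts of all 16516 genes that passed its filter for low counts, and all 40 genes of the list were among them. P-values were adjusted over all genes by the method of Benjamini and Hochberg. A gene was called at an adjusted p under 0.05. Over all genes 68 were called (0.412%), 47 of them higher in PKM2ΔMAC (0.285%). Among the 40, Msr1 was called, as higher in PKM2ΔMAC, and 0 were called as lower. An unadjusted p under 0.05 was reached by 13 of the 40 (32.5%), against 9.83% of all genes tested, with 9 higher (5.24% of all genes) and 4 lower (4.6% of all genes). The 3 libraries of a genotype lay wholly above or below those of the other for 13 of the 40 (32.5%), 10 higher and 3 lower, against 17.2% of all genes. The median absolute log2 fold change of the 40 genes was 0.13, beside 0.09 over all genes, and their signed median was 0.01, beside -0.00021. The list was chosen with earlier results of these data known, and the genes set beside it were not matched for level. These shares thus describe the list, are no test of it and single out no gene. For 23 of the 40 genes the 95% interval of the log2 fold change lay within 0.5 of 0 on either side, as it did for 9821 of all 16516 genes. For a single gene, an exact two-sided permutation test of 3 against 3 libraries cannot go below p = 0.10, the value reached by every gene named below as not overlapping between genotypes.

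**Figure D2:**
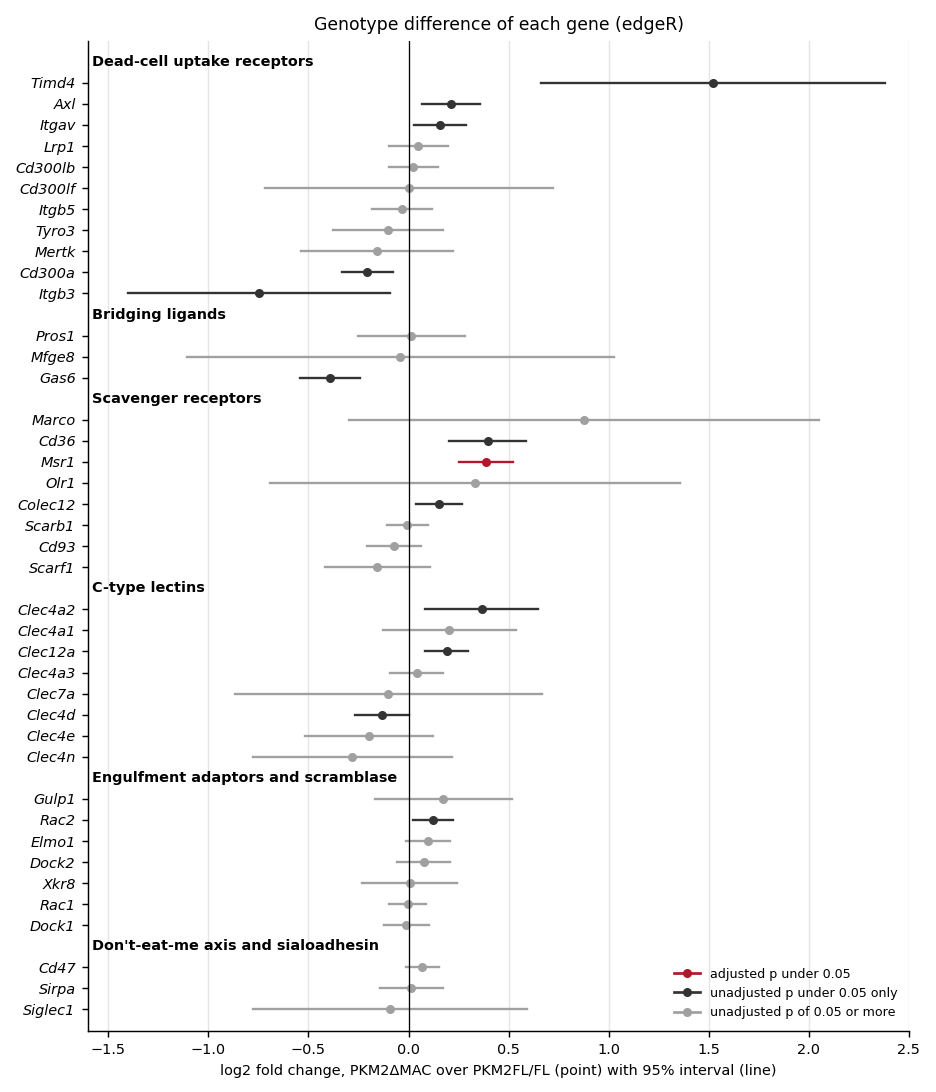
Log2 fold change of PKM2ΔMAC over PKM2FL/FL with its 95% interval for each of the 40 genes, by role, from the edgeR fit on 3 against 3 libraries. Msr1 (red) is the gene with an adjusted p under 0.05, black marks the other 12 genes with an unadjusted p under 0.05, and the intervals of Marco, Mfge8, Olr1, Timd4, Clec7a, Cd300lf, Siglec1 and Itgb3 are wider than those of the other genes.

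Among the TAM receptors, the receptor kinases that bind dead cells through GAS6 or protein S, Axl made up most of the message. Axl had 332.4, 315.1 and 290.9 CPM in PKM2FL/FL mice 1 to 3 and 366.7, 383.2 and 336.2 CPM in PKM2ΔMAC mice 1 to 3. Every PKM2ΔMAC library lay above every PKM2FL/FL library, though mouse 3 of the former (336.2 CPM) only just above mouse 1 of the latter (332.4 CPM). The log2 fold change was 0.21 (SE 0.06, 95% interval 0.06 to 0.36), with an adjusted p of 0.332 in edgeR. Mertk, the TAM kinase most tied to efferocytosis by resting macrophages, was between 134.2 and 136.7 CPM in PKM2FL/FL, while its PKM2ΔMAC libraries had 132.5, 93.0 and 138.8 CPM. The lower mean in PKM2ΔMAC thus came from mouse 2, and without that library the log2 fold change moved from -0.16 to 0.0022. Tyro3 was low in both genotypes, with between 4.59 and 5.75 CPM. As a share of the summed TPM of the 3 kinases, Axl took 65.9% ± 1.44 in PKM2FL/FL and 71.5% ± 5.38 in PKM2ΔMAC, Mertk 33.2% ± 1.44 and 27.8% ± 5.33, and Tyro3 0.916% ± 0.0587 and 0.798% ± 0.0542 (mean ± SD, n = 3). The ranges of the Axl and Mertk shares overlapped between genotypes, with a lowest Axl share in PKM2ΔMAC of 67.0% and a highest in PKM2FL/FL of 67.1%.

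Gas6, the ligand that bridges phosphatidylserine to the TAM kinases, stood on the other side. It had 733.2, 860.7 and 748.8 CPM in PKM2FL/FL and 573.9, 606.9 and 603.6 CPM in PKM2ΔMAC libraries. All PKM2ΔMAC libraries were below all PKM2FL/FL libraries, and the highest of them was 606.9 CPM. The mean went from 780.9 ± 69.5 to 594.8 ± 18.2 CPM, a log2 fold change of -0.39 (SE 0.06, 95% interval -0.54 to -0.25), and its adjusted p of 0.0528 just missed the threshold in edgeR. Of the 15 alternatives tried, 4 called Gas6 and 11 did not. Among the 4 were DESeq2 (adjusted p = 5.16e-05) and edgeR without a filter on low counts (adjusted p = 0.00868). The highest adjusted p of Gas6 was 0.330, in limma on log2(TPM + 1) with no filter. Gas6 lies on chromosome 8, chr8:13465374-13494490 on the minus strand (GRCm38, GENCODE M21), and its exons overlap those of Tmem255b, on the opposite strand, in 34 of 2548 bases. Pros1, which encodes protein S, had 140.1, 139.0 and 143.7 against 158.1, 116.8 and 151.7 CPM. Its PKM2ΔMAC values lay on both sides of the PKM2FL/FL values, with a log2 fold change of 0.01 (95% interval -0.25 to 0.28). Of the summed TPM of both ligands, Gas6 took 89.8% ± 0.877 in PKM2FL/FL and 87.0% ± 2.03 in PKM2ΔMAC.

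Mfge8, the bridge between phosphatidylserine and αv integrins, had the largest spread between mice of the 3 ligands. It had 1192, 752.2 and 1218 CPM in PKM2FL/FL and 1398, 525.9 and 1151 CPM in PKM2ΔMAC mice 1 to 3. Mouse 2 was the lowest in both genotypes. The log2 fold change was -0.04 with a 95% interval from -1.11 to 1.03, the widest of the 3 ligands, so that these 6 libraries leave the size of any difference in Mfge8 undetermined.

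The Gas6 and Axl promoters are shown because this ligand and its receptor lay on opposite sides of the comparison, though neither was called in edgeR. The sequences are the 250 bases before the annotated start from RefSeq (GRCm38.p6), 5′ to 3′ on the strand of the gene, chr8:13494536-13494785 (minus strand) for Gas6 and chr7:25788734-25788983 (minus strand) for Axl. Capitals mark every GC box, searched as GGGCGG, and every GAGGAA, the core letters of PU.1 sites, on both strands.
Gas6: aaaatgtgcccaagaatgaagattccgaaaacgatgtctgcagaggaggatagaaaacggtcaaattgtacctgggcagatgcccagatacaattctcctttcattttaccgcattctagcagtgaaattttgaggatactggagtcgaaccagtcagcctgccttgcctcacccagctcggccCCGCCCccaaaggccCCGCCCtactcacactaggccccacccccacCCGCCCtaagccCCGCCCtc
Axl: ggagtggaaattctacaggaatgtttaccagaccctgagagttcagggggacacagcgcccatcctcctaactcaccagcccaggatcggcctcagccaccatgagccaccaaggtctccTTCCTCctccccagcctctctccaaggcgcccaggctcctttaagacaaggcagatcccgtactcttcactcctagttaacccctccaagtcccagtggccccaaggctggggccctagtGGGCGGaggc
Gas6 held 4 GC boxes and 0 GAGGAA in this window, and Axl held 1 of each. Of the 40 genes 28 had an entry in the promoter table, and the first entry of each was used. The shares over all promoters count every entry of the table. GGGCGG was found in 13 of the 28 (46.4%) and in 32.7% of the 32851 promoters of the table, and GAGGAA in 14 of the 28 (50%) and in 23.3% of all. TTCNNNGAA, the letters of a gamma-activated sequence, which STAT factors bind after IFN-γ, was found in 3 of the 28 (Lrp1, Pros1 and Clec4a2), 10.7% beside 7.02% of all promoters. ACGTG, the core of hypoxia response elements, was found in 2 (Clec4e and Cd47), 7.14% beside 16.6% of all. A match of letters is not a bound site.

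Of the receptors that bind phosphatidylserine themselves, Timd4 had the largest fold change of the 40 genes and the second lowest level. TIM-4 marks many tissue-resident macrophages and tethers dead cells. Its raw counts were 19, 12 and 16 in PKM2FL/FL and 55, 30 and 51 in PKM2ΔMAC libraries, or 0.356, 0.231 and 0.315 against 1.04, 0.546 and 1.03 CPM. The lowest PKM2ΔMAC library, mouse 2, still lay above the highest PKM2FL/FL library. With a log2 fold change of 1.52 (SE 0.38, 95% interval 0.66 to 2.38) the adjusted p was 0.221 in edgeR, and 0.0396 without PKM2ΔMAC mouse 2. Without any other single library, the adjusted p of Timd4 in edgeR was between 0.291 and 0.649. CD300A carries inhibitory motifs and binds phosphatidylserine and phosphatidylethanolamine. Cd300a had 180.4, 161.5 and 188.0 CPM in PKM2FL/FL and 153.3, 152.5 and 153.6 CPM in PKM2ΔMAC libraries. The 3 PKM2ΔMAC values were almost equal and all below the PKM2FL/FL values, with a log2 fold change of -0.21 (SE 0.06) and an adjusted p of 0.260. Cd300lb, an activating member of the family, did not differ beyond the spread between mice (log2 fold change 0.02, 95% interval -0.10 to 0.14), and for Cd300lf, at between 4.43 and 8.13 CPM, the interval ran from -0.72 to 0.72. The 3 genes lie together on chromosome 11. Of the 50-base windows of the longest Cd300a transcript, 3.59% also occur in transcripts of other genes, most of all Cd300c2, and for Cd300lf it was 6.70%, most of all Cd300ld, so a small part of their reads could have been counted for a relative or for none.

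The αv integrin chain pairs with β3 or β5 to bind MFG-E8 on dead cells. Itgav, the αv chain, had 294.1, 300.7 and 283.3 CPM in PKM2FL/FL and 326.9, 349.9 and 302.0 CPM in PKM2ΔMAC libraries, with no overlap but a narrow gap between 300.7 and 302.0 CPM (log2 fold change 0.16, SE 0.06, adjusted p = 0.416). Itgb3, which encodes β3, lay on the other side, with 94.2, 67.5 and 81.3 against 56.4, 32.7 and 55.8 CPM. Every PKM2ΔMAC library was below every PKM2FL/FL library, and mouse 2 was again the lowest of each genotype. The log2 fold change of -0.75 was the most negative of the 40, but with an SE of 0.26 and a 95% interval from -1.40 to -0.09 its adjusted p was 0.451. It was -0.53 without PKM2ΔMAC mouse 2 and -0.87 without mouse 1. Itgb5, the β5 chain, was at 628.3, 588.2 and 591.3 against 606.0, 531.3 and 629.6 CPM, and the genotypes overlapped (log2 fold change -0.03, 95% interval -0.18 to 0.12). On the TPM scale β3 was the minor partner, and Itgb3 took 7.46% ± 0.921 of the summed TPM of both β chains in PKM2FL/FL and 4.65% ± 0.940 in PKM2ΔMAC (n = 3), without overlap. Lrp1, a large endocytic receptor that binds calreticulin on dead cells, had 3856, 3479 and 3562 against 3878, 3489 and 3899 CPM, which overlap, with a log2 fold change of 0.05 and a 95% interval from -0.10 to 0.19. Gas6, Axl, Mfge8, Lrp1 and the αv, β3 and β5 chains are also known from stromal cells. The sum of the stromal markers, mostly Col1a1 and Col1a2, overlapped between genotypes as given above. Of the 7 stromal markers 4 were higher and 3 lower in PKM2ΔMAC, with 0 called. Pdgfrb, the 1 without overlap, had 126.8, 133.4 and 129.5 CPM in PKM2FL/FL and 148.0, 154.6 and 150.3 CPM in PKM2ΔMAC libraries. Its log2 fold change was 0.22 (adjusted p = 0.0719, edgeR). The part of the stromal markers in these results was not tested.

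The scavenger receptors held the gene that passed the test. Msr1, which encodes scavenger receptor A (SR-A1), the receptor for acetylated LDL, bacterial products and dead cells, had 141.4, 126.2 and 135.1 CPM in PKM2FL/FL and 163.9, 176.6 and 185.9 CPM in PKM2ΔMAC libraries. The lowest PKM2ΔMAC library, mouse 1, lay above the highest PKM2FL/FL library, also mouse 1, by more than the SD of either genotype. Msr1 rose 1.31-fold, from 134.2 ± 7.67 to 175.5 ± 11.0 CPM, a log2 fold change of 0.39 (SE 0.06, 95% interval 0.25 to 0.52; adjusted p = 0.0371, edgeR). Its direction held under all 15 alternatives, between 0.34 and 0.46, but the call held under 7 of them. Among the settings that ended it were the fits without PKM2FL/FL mouse 1 (adjusted p = 0.109), mouse 2 (0.212) or mouse 3 (0.239) and without PKM2ΔMAC mouse 3 (0.0632), and limma on log2(TPM + 1) (0.0756). Msr1 lies at chr8:39581685-39642673, on the minus strand, and none of its 50-base windows is shared with another gene.

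Cd36, which binds oxidised LDL, long-chain fatty acids and, with thrombospondin, dead cells, had a log2 fold change of the same size and direction but did not pass the test. It had 404.1, 342.4 and 395.4 CPM in PKM2FL/FL and 484.5, 465.7 and 551.2 CPM in PKM2ΔMAC libraries. The genotypes did not overlap, but the SD was 8.78% of the mean in PKM2FL/FL and 8.97% in PKM2ΔMAC. With a log2 fold change of 0.39 (SE 0.08, 95% interval 0.20 to 0.59), its adjusted p was 0.167 in edgeR and 0.00215 in DESeq2. Colec12, a collectin-type scavenger receptor, had 134.6, 141.1 and 145.5 against 165.2, 150.0 and 152.8 CPM (log2 fold change 0.15, SE 0.05, adjusted p = 0.370), again without overlap. Its transcript carries repeats, and 4.71% of its 50-base windows occur in other genes. The other 5 scavenger receptors overlapped between genotypes. Cd93, a transmembrane receptor linked to the uptake of dead cells, had 743.6, 787.3 and 770.1 against 712.7, 792.4 and 684.2 CPM. Scarb1, the receptor for high-density lipoprotein, was between 157.1 and 172.3 CPM in all libraries, with a log2 fold change of -0.01 and a 95% interval from -0.11 to 0.10, the tightest of the group. Scarf1, a receptor for dead cells coated with C1q, had a log2 fold change of -0.16 (95% interval -0.42 to 0.11). Marco, a class A relative of Msr1, and Olr1 had few counts. Marco had 28, 16 and 26 counts in PKM2FL/FL and 34, 80 and 18 in PKM2ΔMAC libraries, so its log2 fold change of 0.87 (95% interval -0.30 to 2.05) rested on mouse 2 and was 0.17 without it. Olr1 had between 8 and 14 counts in each library.

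**Figure D3:**
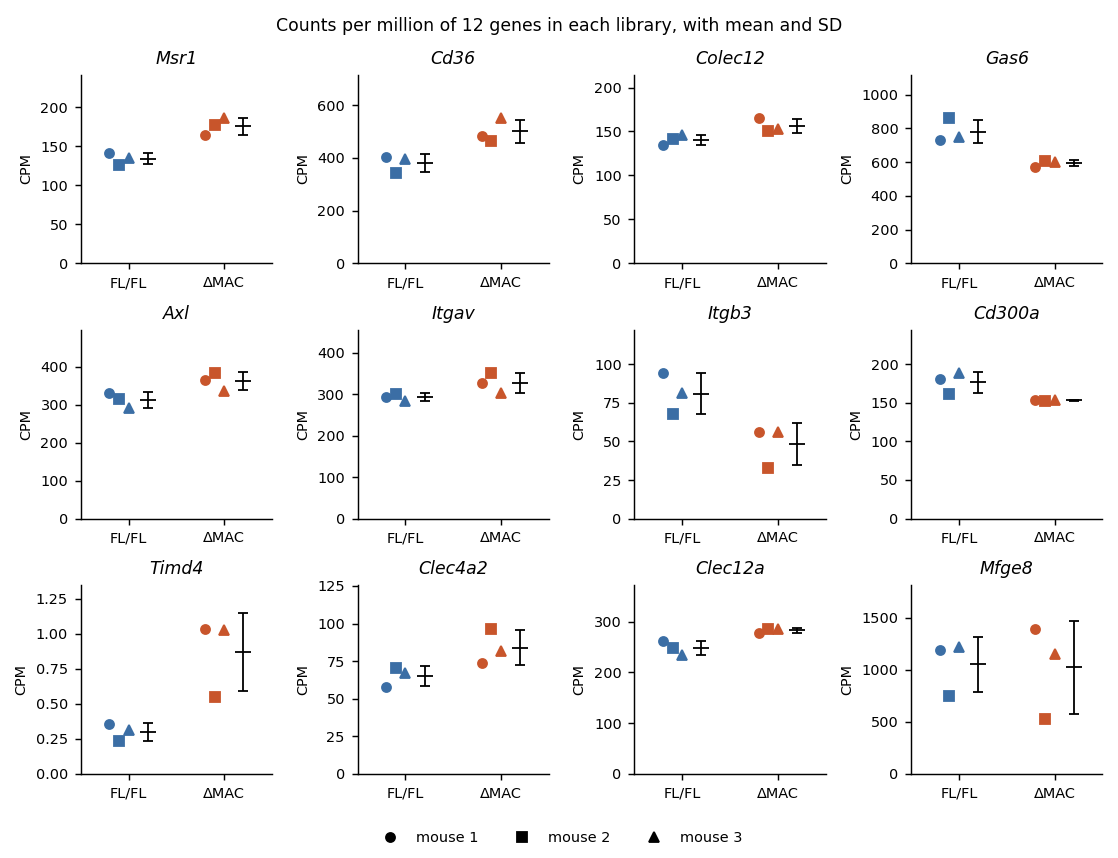
CPM of 12 genes in each library, with the mean and SD of each genotype beside the 3 mice (marker shapes) and every axis starting at 0. Msr1, Cd36, Axl, Itgav, Colec12, Timd4, Clec4a2 and Clec12a lie higher and Gas6, Itgb3 and Cd300a lower in PKM2ΔMAC without overlap, whereas Mfge8 is split by mouse 2 in both genotypes.

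The C-type lectins did not move as a group, with 4 of 8 higher and 4 of 8 lower, 0 called, and a median log2 fold change of -0.03. Clec12a, an inhibitory receptor (MICL) that senses uric acid crystals from dead cells, had 261.6, 248.7 and 234.1 CPM in PKM2FL/FL and 277.2, 285.7 and 286.1 CPM in PKM2ΔMAC libraries. No library overlapped, and the log2 fold change was 0.19 (SE 0.05, 95% interval 0.08 to 0.30, adjusted p = 0.225). Clec4a2, the inhibitory receptor DCIR, had 57.9, 70.6 and 67.1 against 73.6, 96.6 and 81.6 CPM, also without overlap (log2 fold change 0.36, SE 0.12, adjusted p = 0.402). Its relatives Clec4a1 (DCIR4) and Clec4a3 (DCIR3) overlapped between genotypes. Clec4a1 had 197.4, 231.1 and 207.4 against 229.5, 293.4 and 209.5 CPM (log2 fold change 0.20, 95% interval -0.13 to 0.54), and for Clec4a3 the log2 fold change was 0.04 (95% interval -0.09 to 0.17). Of the 50-base windows of the longest Clec4a2 transcript 8.31% occur in other genes, most of all Clec4a4, while Clec4a1 and Clec4a3 share none.

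The activating lectins of the list, which signal through the Fc receptor γ chain or their own tail to Syk and Card9, had 0 genes called. Their 4 log2 fold changes were below 0, as were those of 8271 of all 16516 genes, and the 95% interval of Clec4d alone left out 0. Clec4d (MCL), the partner of Mincle in the binding of mycobacterial glycolipid, had 255.2, 272.5 and 271.6 against 228.7, 263.7 and 235.8 CPM. The library of PKM2ΔMAC mouse 2 lay among the controls, and the log2 fold change of -0.13 (SE 0.06) had an adjusted p of 0.508, or 0.0367 without that mouse. Without any other single library, the adjusted p of Clec4d in edgeR was between 0.584 and 0.823. Clec4e, Mincle itself, was between 7.64 and 11.6 CPM (log2 fold change -0.20, 95% interval -0.52 to 0.12). Clec4n, the mannan receptor Dectin-2, had a log2 fold change of -0.28 (95% interval -0.78 to 0.22). Clec7a, the β-glucan receptor Dectin-1, had 297.3, 210.5 and 282.8 against 288.4, 153.7 and 295.2 CPM, with mouse 2 lowest in each genotype and a log2 fold change of -0.10 (95% interval -0.87 to 0.66) that turned to 0.15 without PKM2ΔMAC mouse 2. GENCODE M21 lists Clec7a as a polymorphic pseudogene, and it was counted here as the other genes were. The 6 Clec4 genes form a run on chromosome 6 between 122921848 and 123289870, and Clec12a, Clec7a and Olr1 lie in a second run on the same chromosome, between 129342691 and 129507165. As shares of the summed TPM of the first run, given with no test, Clec4a2 was at 5.45% ± 0.222 in PKM2FL/FL and 6.87% ± 0.327 in PKM2ΔMAC, Clec4d at 40.9% ± 1.20 and 36.5% ± 1.42, and Clec4e at 0.541% ± 0.0355 and 0.458% ± 0.0568, these 3 without overlap. The shares of Clec4n, Clec4a1 and Clec4a3 overlapped between genotypes. Several of these lectins are also known from neutrophils and monocytes, and the neutrophil marker sums given above were higher in PKM2ΔMAC in all libraries.

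The promoter of Clec12a, which had the smallest adjusted p of the 8 C-type lectins of the list, is shown as a contrast to Gas6. The window before the RefSeq start spans chr6:129349994-129350243, plus strand, with the same letters in capitals. GENCODE M21 places the start of Clec12a further upstream, at 129342691, so that this window lies inside the gene as that annotation draws it.
Clec12a: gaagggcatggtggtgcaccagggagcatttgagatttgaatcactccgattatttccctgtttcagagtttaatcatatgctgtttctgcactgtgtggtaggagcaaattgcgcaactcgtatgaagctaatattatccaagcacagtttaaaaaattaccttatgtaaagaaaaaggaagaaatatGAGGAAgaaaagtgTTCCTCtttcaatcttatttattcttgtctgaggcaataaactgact
It held 0 GC boxes and 2 copies of GAGGAA, 1 on each strand. The 7 lectin promoters in the table were poor in G and C, between 35.2% and 53.2% with a median of 39.6%, against a median of 60.0% for the other 21 genes of the list in the table and 52.4% for all promoters. None of the 7 lectin promoters held GGGCGG.

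Downstream of the receptors, ELMO1 and DOCK proteins activate the GTPases RAC1 and RAC2, which drive closure of the phagocytic cup. Of these 7 genes 0 were called and 6 had a 95% interval within 0.5 of 0. Rac2, the form that prevails in blood cells, had 254.2, 232.7 and 243.7 CPM in PKM2FL/FL and 259.7, 268.6 and 266.2 CPM in PKM2ΔMAC libraries. The genotypes did not overlap, and the log2 fold change of 0.12 (SE 0.04) had an adjusted p of 0.413. Rac1 had 417.2, 429.0 and 402.0 against 410.1, 423.5 and 410.2 CPM, which overlap, and its log2 fold change was -0.01 (95% interval -0.10 to 0.09). More than for any other gene of the list its count depends on how reads were assigned, because 2309 of its 4496 exon bases overlap Daglb on the opposite strand and the strand setting of the counting is not given in the sources used here. Daglb had a mean of 202.3 CPM and an adjusted p of 0.914. Elmo1 had a log2 fold change of 0.10 (95% interval -0.01 to 0.21), Dock2 of 0.07 (-0.06 to 0.21) and Dock1 of -0.01 (-0.12 to 0.10). Gulp1, an adaptor that binds LRP1 and stabilins, was between 5.24 and 8.24 CPM. Xkr8, the scramblase that exposes phosphatidylserine in dying cells, was between 8.27 and 9.89 CPM, with a log2 fold change of 0.0049 (95% interval -0.23 to 0.24).

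CD47 on a target cell binds SIRPα on the macrophage and restrains uptake. Sirpa had 2785, 2676 and 2604 CPM in PKM2FL/FL and 2804, 2442 and 2890 CPM in PKM2ΔMAC libraries, and the genotypes overlapped (log2 fold change 0.01, 95% interval -0.14 to 0.17). Cd47 had 243.0, 243.6 and 242.9 against 254.2, 260.7 and 250.6 CPM. The PKM2FL/FL values were almost equal and all below those of PKM2ΔMAC, yet the difference was small, with a log2 fold change of 0.07 (95% interval -0.01 to 0.15, adjusted p = 0.580). Siglec1, the sialic acid-binding adhesion receptor CD169, had 373.5, 429.0 and 362.9 against 396.1, 463.3 and 233.8 CPM. PKM2ΔMAC mouse 3 was far below the others, and the log2 fold change of -0.09 (95% interval -0.78 to 0.59) was 0.14 without that library.

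Mouse 2 was often at 1 end of its genotype. The library of mouse 2 was the lowest of its genotype in both genotypes for 14 of the 40 genes (35%, beside 16.5% of all genes tested), among them Mertk, Itgb3, Mfge8, Cd36 and Clec7a, and the highest in both for 12 (30%, beside 16.1% of all genes), among them Gas6, Itgav, Siglec1 and the DCIR genes Clec4a1, Clec4a2 and Clec4a3. For genes such as Mfge8, Cd300lf and Clec7a the distance between mouse 2 and the others of its genotype exceeded that between the genotypes. The labels give no meaning to the number beyond the mouse, and over all genes the deviations of same-numbered libraries from their genotype means correlated by 0.07, 0.12 and 0.01 for mice 1, 2 and 3.

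**Figure D4:**
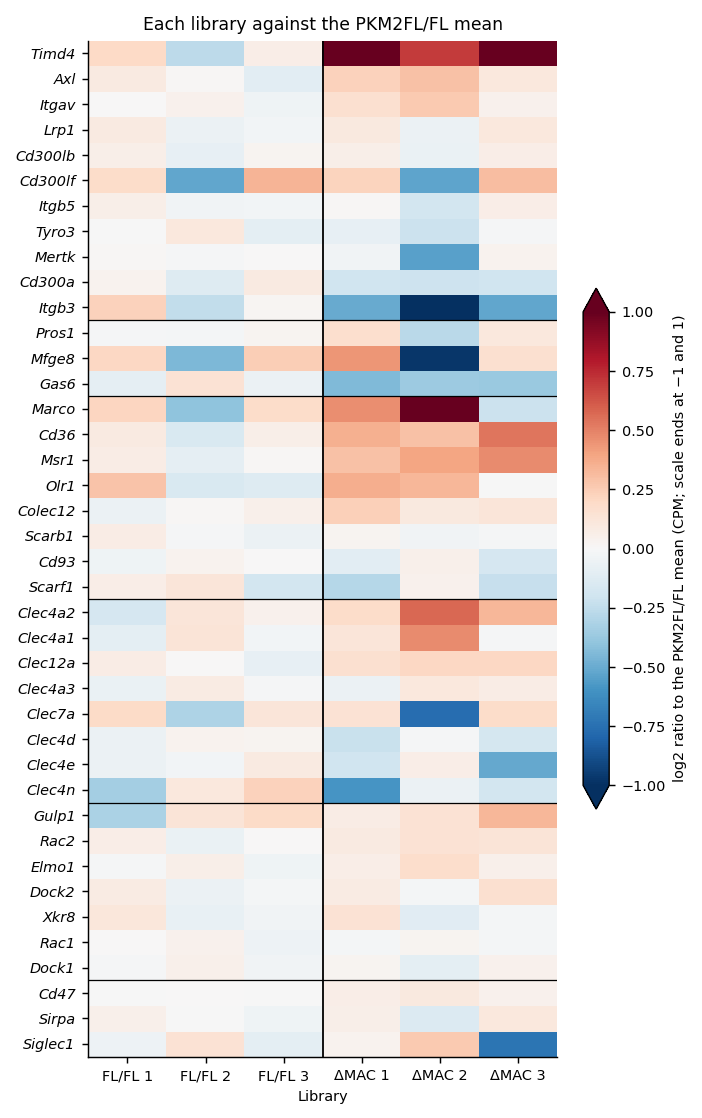
Log2 ratio of the CPM of each library to the PKM2FL/FL mean for the 40 genes, by role and, within a role, by log2 fold change, with colours ending at -1 and 1. Msr1, Cd36, Axl and Clec12a are warm in all 3 PKM2ΔMAC columns and Gas6 and Itgb3 cold in all 3, whereas Mfge8, Cd300lf and Clec7a are cold in the mouse 2 column of both genotypes.

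Other genes of the same pathways were compared from lists of general knowledge. Of 42 tested genes with other roles in efferocytosis 0 were called, 21 were higher and 21 lower, and the median log2 fold change was -0.0038. Among 19 other scavenger receptors 0 were called (7 higher, 12 lower, median -0.08). Among 21 other C-type lectins 1 was called. Clec10a, the galactose-type lectin MGL1 that macrophages raise in alternative activation, had 38.3, 46.5 and 44.8 CPM in PKM2FL/FL and 27.8, 24.2 and 22.7 CPM in PKM2ΔMAC libraries. Clec10a fell by 0.80 on the log2 scale (SE 0.10, adjusted p = 0.0143, edgeR), with a clear gap between the genotypes, and was the gene with the smallest adjusted p among all the lectins tested. Of 34 genes of C-type lectin and immune-receptor signalling 0 were called (14 higher, 20 lower, median -0.02), and 31 of them had a 95% interval within 0.5 of 0. An unadjusted p under 0.05 was found for 2 of the efferocytosis genes (4.76%), 4 of the scavenger receptors (21.1%), 5 of the lectins (23.8%) and 4 of the signalling genes (11.8%), beside 9.83% of all genes.

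The direction of the 13 genes with an unadjusted p under 0.05 was the same in every alternative in which they could be fitted, while the calls were not. Among other settings, DESeq2 called Timd4, Gas6, Cd36 and Msr1, edgeR without a filter called Gas6 and Msr1, and limma on the TPM values called none. Left out in turn, PKM2ΔMAC mouse 2 brought the number called to 4 (Timd4, Gas6, Msr1 and Clec4d), while each PKM2FL/FL library and PKM2ΔMAC mouse 3 brought it to 0. Without PKM2ΔMAC mouse 1 it stayed at 1. The count of 13 was between 9 and 18 when 1 library was left out, highest without PKM2ΔMAC mouse 2.

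**Figure D5:**
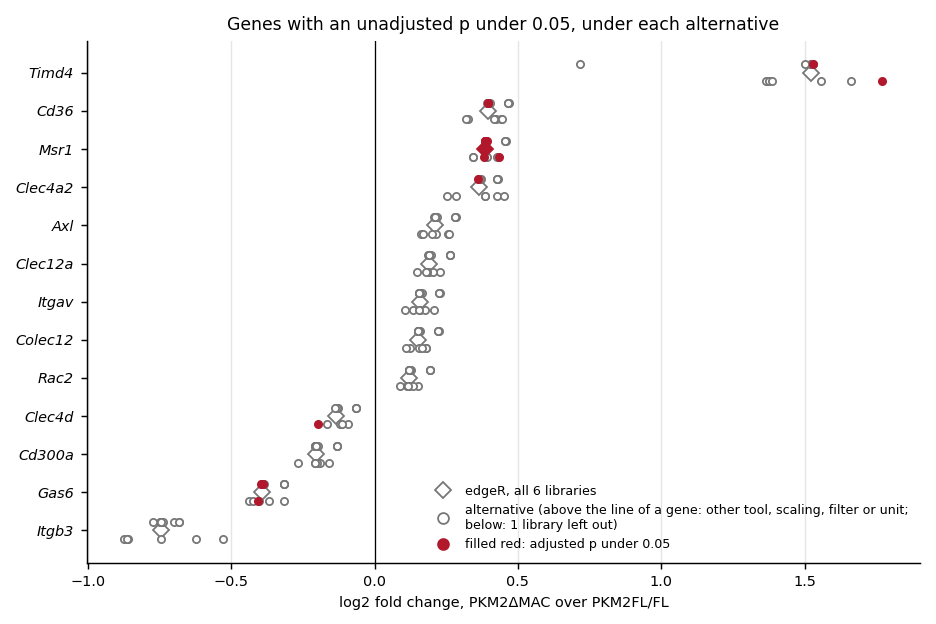
Log2 fold change of the 13 genes with an unadjusted p under 0.05 in the edgeR fit of all libraries (diamonds) and under each alternative (circles), filled red where the adjusted p was under 0.05. No gene crosses 0, Msr1 and Gas6 carry most of the filled points, and Timd4 has its lowest value, 0.72, on log2(TPM + 1), a scale that understates the change of low genes.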

How the data were processed

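RNA-seq data of primed BMDMs from 3 PKM2FL/FL and 3 PKM2ΔMAC mice were used, with groups taken from the labels. For each gene symbol the authors deposited the raw read counts, not normalized, and TPM values, which are scaled by transcript length and to the same total in each library. The submitters' processing notes name FastQC 0.12.1, Trim Galore 0.6.10, HISAT2 2.2.1, SAMtools 1.19.2, Subread 2.0.6 and the build mm10. The annotation, the strand setting and the program behind the TPM values are not given in the sources used here. The libraries were made from total RNA with a SMARTER kit.

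Counts were fitted with edgeR 4.0.16 (R 4.3.3, limma 3.58.1), with filterByExpr, TMM factors between 0.980 and 1.04, genotype as the only term, robust estimation and Benjamini-Hochberg adjustment over 16516 genes. The functions were tested on simulated data. CPM values were scaled by TMM factors, and exact permutation tests used log2(CPM + 0.1). With at least 49957449 counts per library, precision also rests on only 3 mice per genotype, and counting error adds most for genes with few counts. On the TPM scale the median gene was 0.06 higher in PKM2ΔMAC on log2(TPM + 1) over 14582 genes, and Lyz2 took between 4.48% and 4.96% of TPM in PKM2FL/FL libraries, so TPM differences are relative to that shift. Positions, exon overlaps and shared 50-base windows came from GENCODE M21 on GRCm38, the assembly that mm10 names, and promoters from RefSeq.

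The 40 genes and the pathway and marker lists were chosen with earlier results of these data known. Values in every library are given for genes with an unadjusted p under 0.05, for those whose genotypes did not overlap, and for the pair of genes with the highest TPM in each role, and some other genes are shown for their spread between mice. Genes of the pathway lists were named at an adjusted p under 0.05. The alternatives tried were RLE or upper-quartile scaling, DESeq2 1.42.0, no filter, at least 10 counts in every library, the replicate number as a block, limma-trend on log2(TPM + 1) or log2(TPM + 0.1) with a mean TPM of at least 1 or no filter, and each library left out. Their use on the number of genes with an unadjusted p under 0.05 was added after seeing the data.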

Additional observations from a re-analysis of the deposited data

How the results depend on the processing

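Of 595 combinations of a gene of the list and an alternative, 554 kept the direction of the log2 fold change, and 27 of the 40 genes kept it under all alternatives in which they could be fitted. Timd4 and Olr1 could not be fitted under some filters. The number of the 40 genes called, 1 in edgeR, was 4 with DESeq2, 2 with no filter, 3 with the replicate block and 0 with limma on log2(TPM + 1), on log2(TPM + 0.1) and on log2(TPM + 1) with no filter. Over all genes the 68 calls became 302, 120, 82, 41, 32 and 36. When 1 library was left out, between 0 and 4 of the 40 and between 22 and 299 of all genes were called. The numbers were taken as not pairing the mice, and all libraries but that of PKM2ΔMAC mouse 3 correlated best with the library of the same number. The replicate block called Gas6, Cd36 and Clec4a2 and gave Msr1 an adjusted p of 0.0552. The direction reversed under some alternative for 13 genes, all of them with an unadjusted p above 0.05. In limma on log2(TPM + 1), log2(TPM + 0.1) and log2(TPM + 1) with no filter, the log2 fold change became 0.03626, 0.03631 and 0.03626 for Itgb5, 0.06647, 0.06735 and 0.06647 for Scarb1, 0.05829, 0.06025 and 0.05829 for Dock1 and 0.06733, 0.06751 and 0.06733 for Rac1. With upper-quartile scaling it became 0.001479 for Scarb1 and 0.001767 for Rac1. With 1 library left out, it ranged from -0.2668 to 0.00224 for Mertk, -0.0843 to 0.03728 for Itgb5, -0.01743 to 0.06548 for Cd300lb, -0.2172 to 0.2271 for Cd300lf, -0.07035 to 0.1378 for Pros1, -0.3304 to 0.2754 for Mfge8, -0.03576 to 0.03169 for Scarb1, -0.2545 to 0.1484 for Clec7a, -0.03852 to 0.03352 for Dock1, -0.02997 to 0.01747 for Rac1, -0.06985 to 0.06455 for Xkr8, -0.03619 to 0.08387 for Sirpa and -0.3012 to 0.1446 for Siglec1. The cause was not tested. Counts were lowest for Olr1, Timd4 and Marco, where counting error adds most, and how much of the spread is counting error was not tested.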
